A study of Cucumis sativus with 12 samples.

Results

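Class III peroxidases are secreted haem enzymes of plants that use hydrogen peroxide to oxidise phenolic compounds in the cell wall, which joins monolignols into lignin and cross-links wall proteins. They form a large gene family in each plant genome and are best known from roots, vessels and wounded tissue. Some members are also expressed in leaves, and depending on the substrate the enzymes can release reactive oxygen species as well as consume hydrogen peroxide. Their expression in cucumber leaves was followed here through the first day of cold. Members were taken from the gene descriptions: those beginning with peroxidase followed by a number or N1, or containing lignin-forming anionic peroxidase or cationic peroxidase. This rule, which used no expression value, found 55 of the 24317 genes, of which 49 carried a number, 2 were peroxidase N1-like, 3 were lignin-forming anionic peroxidase-like and 1 was cationic peroxidase 2-like. All 55 were annotated with the KEGG orthology of plant peroxidases and with the phenylpropanoid biosynthesis map. The GO terms peroxidase activity, heme binding and response to oxidative stress were given to 54, and 1 member had no GO term.

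Leaves of JinYan No. 4, a cucumber inbred line, were profiled by RNA-seq in 4 groups of 3 libraries each, after 0, 3, 12 or 24 h in the cold. Seedlings with 3 true leaves were moved from a warmer regime with longer days into a cycle of 12 h of light at 15 °C and 12 h of dark at 6 °C. The leaves taken at 0 h, before the cold, were the only control, so each later group also differed from them in age and light period, and those at 3 and 12 h in time of day. Expression is given as FPKM, the mapped fragments of a gene relative to its length and to the size of the library, as the authors deposited it. The replicates were stated to be biological, but nothing says how many seedlings made up a library.

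FPKM summed to 561513 to 586297 per library, 18678 to 19551 genes were above 0, and the depth of the libraries, read from the spacing of low values, ranged from 0.912 to 1.28 of that of 0 h replicate 1. Leaf identity was clear from the 19 mesophyll markers, small subunits of ribulose bisphosphate carboxylase and chlorophyll a-b binding proteins, whose summed level was 28088 to 32579 FPKM at 0 h and 66282 to 80447 FPKM at 12 h. Library 12 h replicate 2 was the lowest of its time for 6 of the 7 members that rose at 12 h, and 24 h replicate 2 was the lowest for 6 of the 9 that rose at 24 h. Highest of its time was 3 h replicate 2, for 6 of the 7 members that rose at 3 h. For the rises at 12 and 24 h, replicate 1 was the highest for 6 of the 7 and 6 of the 9. Values are therefore also given without these libraries where a call rests on them. The counts of lowest and highest libraries cover members only and were not set against those of all tested genes. In whole leaves, fewer cells of a type and less RNA per cell cannot be told apart.

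Expression was concentrated in few members. At 0 in all 12 libraries were 17 members, another 11 never reached the filter of at least 0.5 FPKM in at least 3 libraries, and the remaining 27 were tested. The 11 below the filter were low throughout, with a highest single value of 0.601 FPKM. The 4 most abundant members held 92.8% of the members' FPKM over the 12 libraries: CsaV3_4G023590 (peroxidase 2-like), CsaV3_1G010780 (peroxidase 42), CsaV3_4G023630 (peroxidase 2-like) and CsaV3_4G023610 (peroxidase 2). CsaV3_4G023590, with a mean of 486 FPKM, ranked 131 among all genes.

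**Figure D1:**
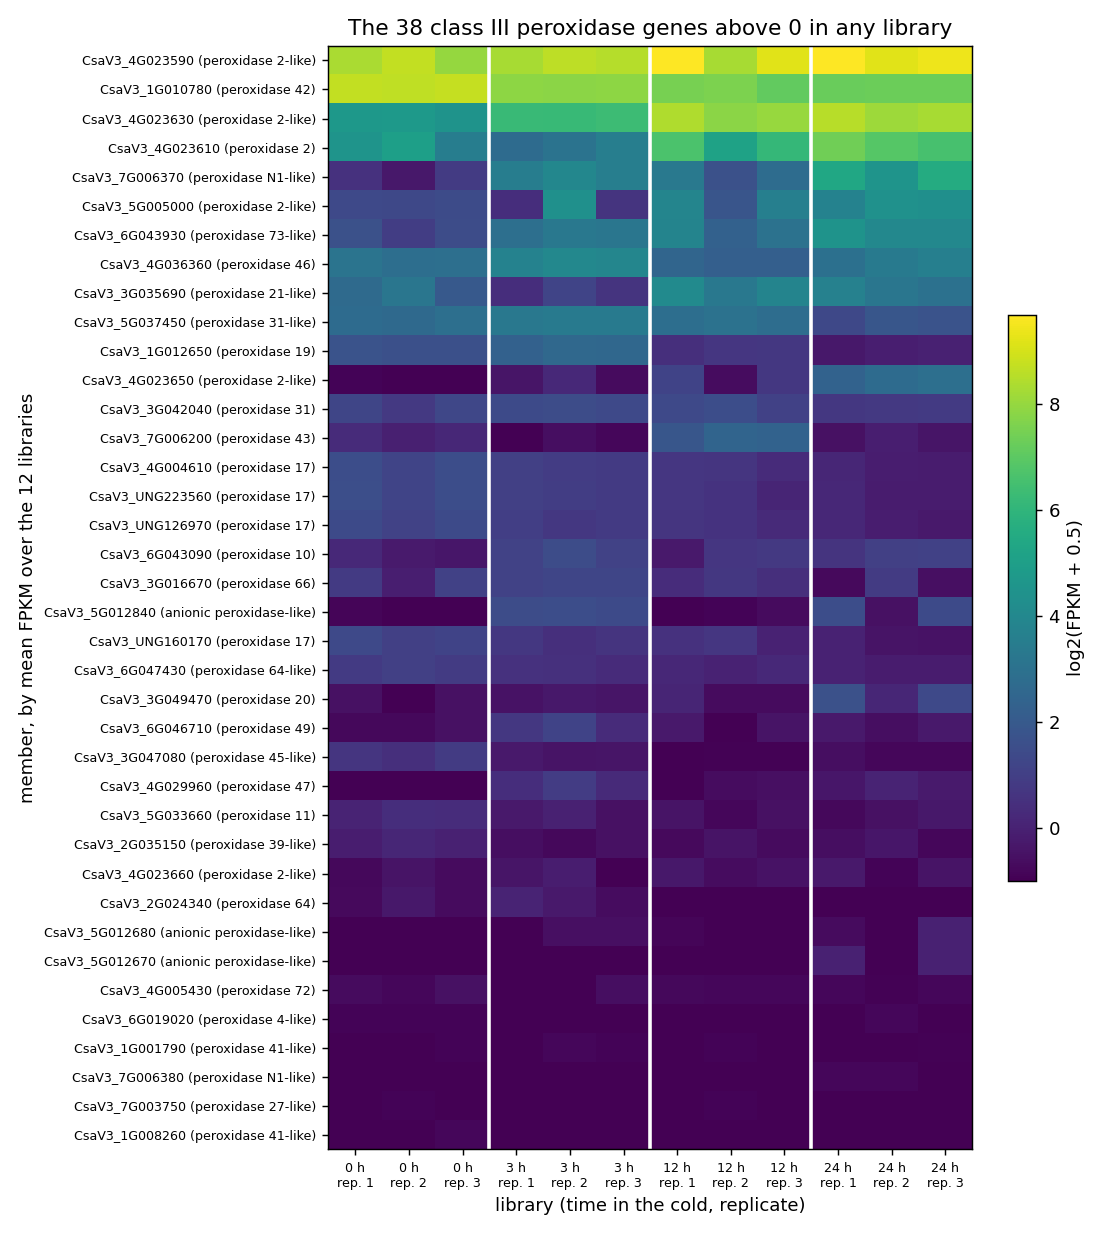
Level of the 38 members above 0 in any library, as log2(FPKM + 0.5), with 1 column for each library and members ordered from top to bottom by their mean FPKM. A few bright rows at the top carry most of the expression, and the 11 lowest members stay at or below 0.601 FPKM in every library.

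By the chromosome number in the gene identifiers, the members lay on all 7 chromosomes, with 11 on chromosome 7, 10 on chromosome 4 and 9 on chromosome 6, and 3 on unplaced sequence. Genome coordinates were not used here. Among members whose identifiers lay within 50 of the next, 6 peroxidase 2 or peroxidase 2-like genes formed a run on chromosome 4, from CsaV3_4G023590 to CsaV3_4G023670. A run of 7 on chromosome 7, from CsaV3_7G030360 to CsaV3_7G030420, held 6 peroxidase 5-like genes and the cationic peroxidase. These runs differed sharply in expression. The chromosome 4 run summed to 286 to 469 FPKM at 0 h and contained 3 of the 4 most abundant members, whereas every gene of the chromosome 7 run was at 0 in all 12 libraries.

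The summed expression of the members was higher at 24 h than at 0 h, and this rise lay mainly in the chromosome 4 run. The summed FPKM of the 55 members was 829, 915 and 752 at 0 h, then 689, 792 and 756 at 3 h, 1495, 804 and 1120 at 12 h, then 1618, 1243 and 1364 at 24 h. Each 24 h library lay above every 0 h library, whereas 12 h replicate 2 lay within the 0 h range. As group means this was 832 ± 81.4 (SD, n = 3) at 0 h and 1408 ± 191 at 24 h, given as a description without a test. The makeup changed as well. Peroxidase 42 held 50.3% of the members' FPKM at 0 h and then 31.1%, 15.9% and 11.1% at the 3 cold times. CsaV3_4G023630 went the other way, from 2.97% at 0 h to 10.2%, 24.5% and 22.7%. CsaV3_4G023590 held 38.9% at 0 h and 47.4% to 49.6% at the later times. The chromosome 4 run summed to 373 ± 91.5 FPKM at 0 h and 1149 ± 187 at 24 h. Outside this run the members together summed to less at 24 h than at 0 h, with peroxidase 42 at a mean of 415 and then 154 FPKM. Without the 4 most abundant members, which include peroxidase 42, the sum was larger at 24 h, at 111 ± 14.3 FPKM against 43.7 ± 2.52 at 0 h.

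**Figure D2:**
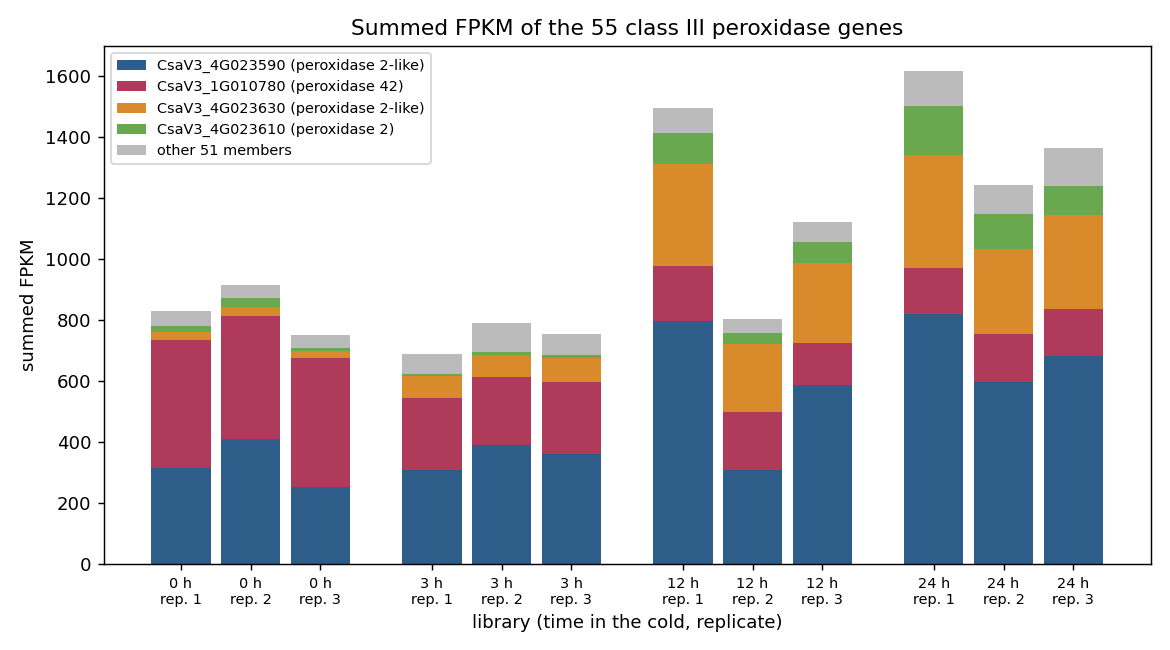
Summed FPKM of the 55 class III peroxidase genes in each of the 12 libraries, stacked by gene (the 4 most abundant members and the other 51). The peroxidase 42 part shrinks from 0 h to 24 h while the peroxidase 2 and 2-like parts grow, and the bar of 12 h replicate 2 (804 FPKM) lies within the 0 h range of 752 to 915 FPKM.

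The 27 tested members were compared with limma on log2(FPKM + 0.5) within a fit of all 17497 tested genes, and a member was called higher or lower at a Benjamini-Hochberg adjusted p under 0.05 with a log2 fold change above 1 or below -1. All fold changes below are on this scale, which understates the change of low genes, and the adjusted p are those of limma. At 3 h against 0 h, 7 members were higher and 3 lower (9.89% and 5.39% of all tested genes). At 12 h, 7 were higher and 3 lower (9.62% and 16.6%), and at 24 h 9 were higher and 9 lower (13.2% and 18.1%). Against 0 h, 23 of the 27 were called at 1 or more times, which was 85.2% of them beside 43.3% of all tested genes. Of these, 12 were only higher, 9 only lower and 2 were lower at 3 h and higher later. Not all of these calls carry the same weight, because 7 tested members reached the filter only through the time of their highest mean and so had to differ. Called among these were 6, peroxidases 20, 43, 45-like, 47, 49 and the lignin-forming anionic CsaV3_5G012840, and peroxidase 11 (CsaV3_5G033660) was not called. The values of these 7 are given below as a description, with no p. Over the 27 members, the libraries of 14 lay above and those of 10 below all 0 h libraries at 3 h (36% and 31.9% of all tested genes), 8 and 10 did so at 12 h (26.3% and 46.8%), and 11 and 11 at 24 h (29.9% and 44.7%). The members' median log2 fold change was 0.34 at 3 h, 0.14 at 12 h and 0.31 at 24 h, beside 0.03, -0.23 and -0.17 over all tested genes. With each library rescaled by its median ratio, which brought the median of all genes to -0.0029 at 12 h and 0.0078 at 24 h, 7 members were higher and 2 lower at 12 h (13.2% and 11.3% of all tested genes with this rescaling), and 10 were higher and 7 lower at 24 h (16% and 13.9%).

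**Figure D3:**
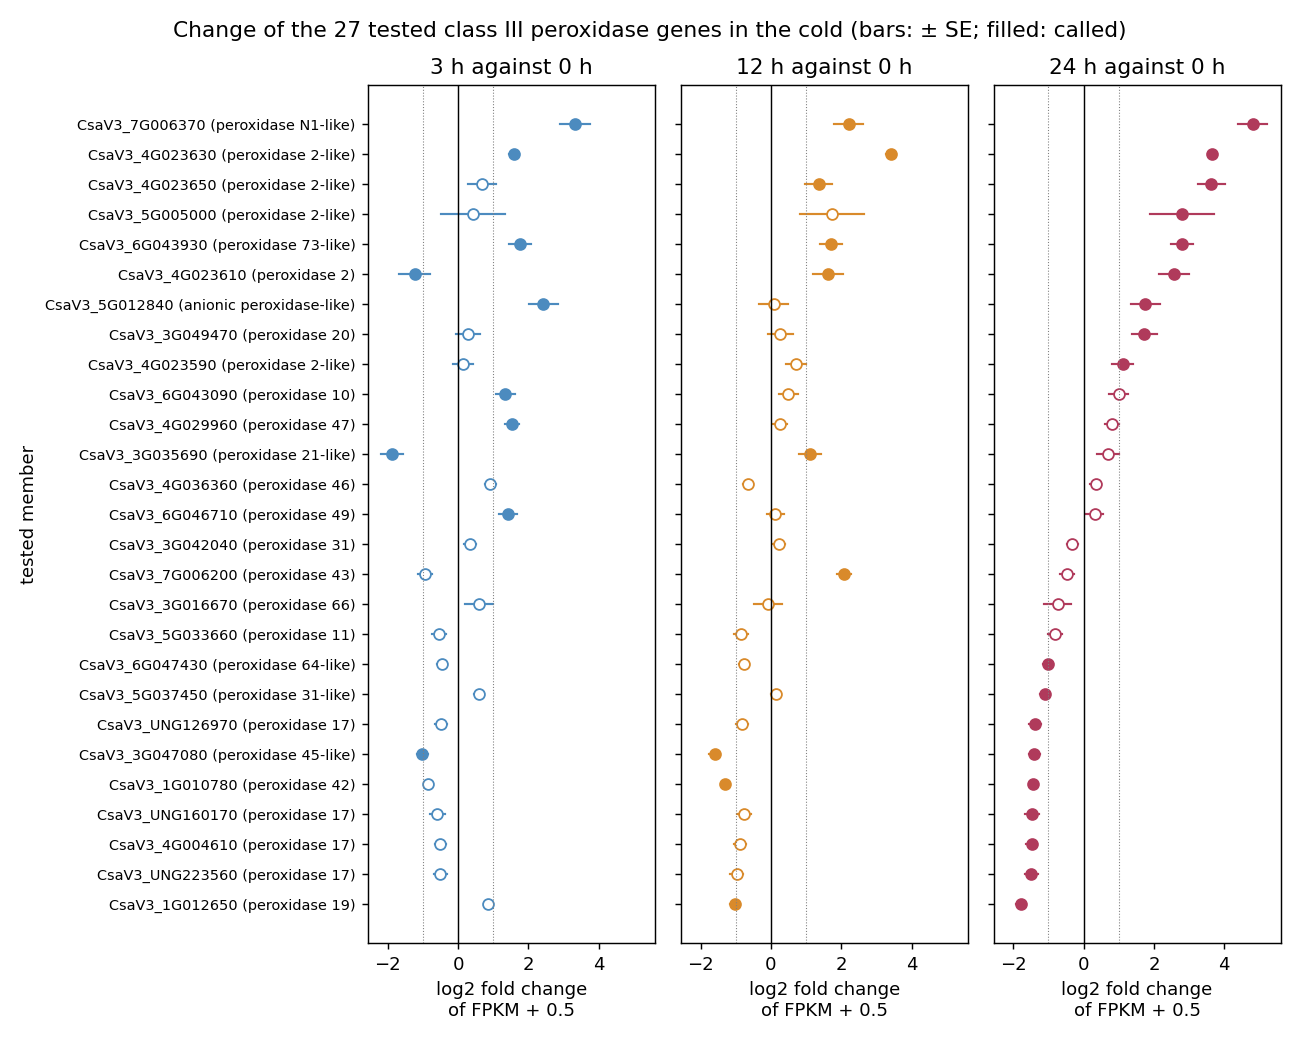
Log2 fold change of FPKM + 0.5 against 0 h for the 27 tested members at 3, 12 and 24 h, with horizontal bars of ± SE from limma, filled circles for called members and dotted lines at the fold threshold of 1. Members are ordered by their change at 24 h, from 4.80 for peroxidase N1-like at the top to -1.78 for peroxidase 19 at the bottom.

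Peroxidase 42, whose counterpart in Arabidopsis is widely expressed, was the most abundant member at 0 h and lost expression, mostly within the first 3 h. Its FPKM was 417, 405 and 422 at 0 h, 234, 224 and 234 at 3 h, 181, 187 and 137 at 12 h, then 150, 157 and 154 at 24 h. Every cold library lay below every 0 h library, and the 0, 3 and 24 h libraries each lay close together. Against 0 h its log2 fold change was -0.84 at 3 h (SE 0.10, adjusted p = 1.41e-05), short of the fold threshold, -1.31 at 12 h (adjusted p = 1.42e-07) and -1.43 at 24 h (adjusted p = 5.15e-08). No call for this gene against 0 h was lost in any alternative.

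The peroxidase 2 genes of the chromosome 4 run rose instead. Peroxidase 2 was first described as a secreted enzyme of cucumber cotyledons that is induced by ethylene. CsaV3_4G023630 showed the plainest upregulation, with 25.8, 26.5 and 21.8 FPKM at 0 h, 74.3, 73.1 and 79.3 at 3 h, 335, 224 and 262 at 12 h, then 370, 279 and 310 at 24 h. The libraries of 0, 3 and 12 h did not overlap, and those of 12 and 24 h did. Its log2 fold change against 0 h was 1.60 at 3 h (SE 0.14, adjusted p = 1.49e-06), 3.43 at 12 h (adjusted p = 9.18e-10) and 3.66 at 24 h (adjusted p = 3.60e-10), and the step from 3 to 12 h was 1.83 (adjusted p = 3.23e-07).

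CsaV3_4G023590, the most abundant member, rose later and less. Its FPKM was 317, 410 and 253 at 0 h, 310, 390 and 363 at 3 h, 797, 310 and 588 at 12 h, then 820, 596 and 682 at 24 h. The 3 h libraries lay within the 0 h range, 1 of the 12 h libraries did too, and the 24 h libraries all lay above it. At 24 h the log2 fold change was 1.11 (SE 0.29, adjusted p = 0.00487), and it was 0.94 without 0 h replicate 3 and 0.99 without 24 h replicate 1, which ended the call. At 12 h it was 0.71 (adjusted p = 0.047), and 1.09 without 12 h replicate 2, which gained a call.

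CsaV3_4G023610, named peroxidase 2, went down before it went up. It had 22.5, 31.8 and 11.0 FPKM at 0 h, 6.24, 7.89 and 11.2 at 3 h, 100, 35.3 and 68.4 at 12 h, then 163, 115 and 94.6 at 24 h. The 12 and 24 h libraries lay above all those of 0 and 3 h, while the highest 3 h library exceeded the lowest of 0 h. The log2 fold change at 3 h was -1.23 (SE 0.44, adjusted p = 0.0331), but it was not called without 0 h replicate 1, 0 h replicate 2, 3 h replicate 1 or 3 h replicate 2, with adjusted p from 0.0697 to 0.117. The later changes were 1.62 at 12 h (adjusted p = 0.00667) and 2.57 at 24 h (adjusted p = 0.000305), and the step from 3 to 12 h was 2.85 (adjusted p = 0.000182).

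Of the other run members, CsaV3_4G023650 was almost silent before the cold, with 0.041 FPKM in 1 of the 0 h libraries and 0 in the others. It had 0.255, 0.686 and 0.121 FPKM at 3 h, 1.70, 0.135 and 1.15 at 12 h, then 4.62, 6.10 and 7.04 at 24 h. All 24 h libraries lay above all others, and 12 h replicate 2 was within the 3 h range. It was higher by 1.36 at 12 h (SE 0.39, adjusted p = 0.00736), just 0.996 without 12 h replicate 1, and 3.63 at 24 h (adjusted p = 3.56e-06). CsaV3_4G023660 stayed at or below 0.403 FPKM and CsaV3_4G023670 was at 0 throughout, so 4 of the 6 genes in the run were tested and each of these 4 was called higher at 24 h. The neighbours are alike in name, and the assignment of reads that map to more than 1 gene was among the steps not given in the sources used here.

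Outside the run, CsaV3_7G006370 (peroxidase N1-like) had the largest rise of the tested members on the log2(FPKM + 0.5) scale, which compresses that of CsaV3_4G023650 from near 0. Peroxidase N1 takes its name from tobacco, where the gene responds to wounding. It had 0.951, 0.313 and 1.29 FPKM at 0 h, 11.0, 15.0 and 11.5 at 3 h, 9.37, 2.61 and 6.30 at 12 h, then 40.7, 22.7 and 47.6 at 24 h. Every cold library lay above every 0 h library, and the 12 h libraries lay below those of 3 and 24 h. The log2 fold change was 3.33 at 3 h (SE 0.42, adjusted p = 5.24e-05), 2.21 at 12 h (adjusted p = 0.000692) and 4.80 at 24 h (adjusted p = 1.25e-06). The dip from 3 to 12 h was -1.12 (adjusted p = 0.0362), a call that was lost without any single 3 h library and without 12 h replicate 2 or 3, with adjusted p from 0.0531 to 0.139. Its neighbour CsaV3_7G006380, also peroxidase N1-like, reached no more than 0.073 FPKM.

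CsaV3_6G043930 (peroxidase 73-like), whose counterpart in Arabidopsis acts in root hair growth, was also higher at all 3 times. It had 2.67, 1.43 and 2.27 FPKM at 0 h, 6.89, 9.12 and 8.57 at 3 h, 13.7, 4.49 and 7.73 at 12 h, then 22.1, 15.1 and 15.4 at 24 h. No cold library overlapped those of 0 h. The log2 fold changes were 1.75 at 3 h (SE 0.32, adjusted p = 0.000577), 1.70 at 12 h (adjusted p = 0.00047) and 2.79 at 24 h (adjusted p = 7.31e-06).

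CsaV3_5G005000, a peroxidase 2-like gene on chromosome 5, was the least regular of the members. It had 2.05, 1.96 and 2.20 FPKM at 0 h, 0.815, 19.8 and 1.03 at 3 h, 14.1, 3.04 and 11.8 at 12 h, then 13.0, 20.7 and 19.4 at 24 h. At 3 h, replicate 2 stood far above the other libraries of its time, which lay below all those of 0 h. The log2 fold change at 24 h was 2.80 (SE 0.90, adjusted p = 0.0166), and without 24 h replicate 2 it was 2.67 (adjusted p = 0.0592). At 3 h it was 0.42 (adjusted p = 0.716) with all libraries and -0.86 without 3 h replicate 2.

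**Figure D4:**
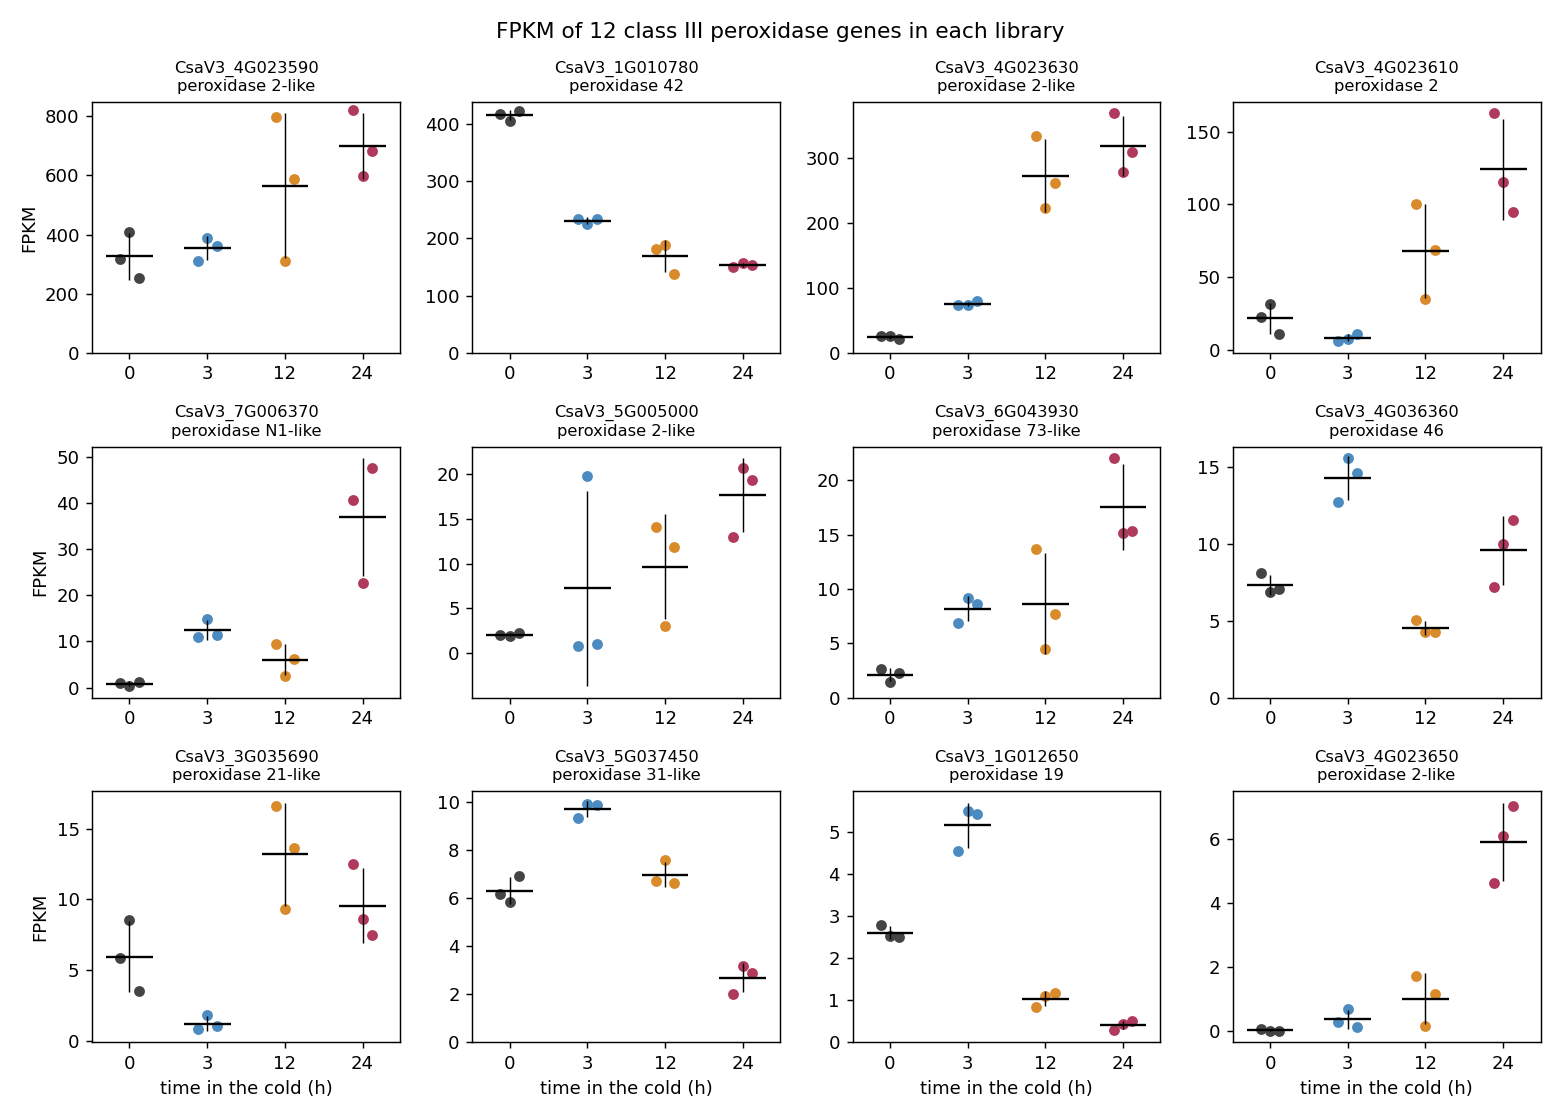
FPKM against time in the cold for the 12 members chosen by level and change, with 1 point for each library, a horizontal line at the mean of 3 libraries and a vertical bar of ± SD. Each panel has its own FPKM axis. Peroxidase 42 goes down from 417, 405 and 422 FPKM at 0 h, and the peroxidase 2 and N1-like genes reach their highest mean at 24 h.

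Several members moved in different directions at different times. CsaV3_3G035690 (peroxidase 21-like) had 5.87, 8.51 and 3.49 FPKM at 0 h, 0.833, 1.79 and 1.02 at 3 h, 16.6, 9.33 and 13.6 at 12 h, then 12.5, 8.62 and 7.48 at 24 h. The 3 h libraries lay below and the 12 h libraries above all those of 0 h, and the 24 h libraries overlapped them. Its changes of -1.88 at 3 h (SE 0.31, adjusted p = 0.000296) and 1.12 at 12 h (adjusted p = 0.00674) had opposite signs. The call at 12 h was lost without 0 h replicate 3 (0.82) and without 12 h replicate 1 (0.95).

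CsaV3_1G012650 (peroxidase 19) peaked at 3 h and then declined. It had 2.79, 2.53 and 2.52 FPKM at 0 h, 4.55, 5.52 and 5.45 at 3 h, 0.837, 1.10 and 1.18 at 12 h, then 0.295, 0.428 and 0.496 at 24 h. None of the 4 times overlapped another. Its change of 0.86 at 3 h (SE 0.14, adjusted p = 0.000227) was short of the fold threshold, whereas the gene was lower at 24 h (-1.78, adjusted p = 2.01e-07) and fell by 1.88 from 3 to 12 h (adjusted p = 2.44e-07). At 12 h the value against 0 h was -1.02 (adjusted p = 3.50e-05), which was -0.98 without 0 h replicate 1 and -0.92 without 12 h replicate 1, and -0.82 after median-ratio rescaling.

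CsaV3_5G037450 (peroxidase 31-like) had 6.17, 5.84 and 6.92 FPKM at 0 h, 9.33, 9.93 and 9.88 at 3 h, 6.72, 7.57 and 6.63 at 12 h, then 2.02, 3.17 and 2.86 at 24 h. Its 24 h libraries lay below all others, at -1.11 against 0 h on the log2 scale (SE 0.13, adjusted p = 7.18e-06) that was -0.95 without 24 h replicate 1 and -0.93 after median-ratio rescaling. CsaV3_4G036360 (peroxidase 46) was not called against 0 h at any time. It had 8.07, 6.85 and 7.04 FPKM at 0 h, 12.7, 15.5 and 14.6 at 3 h, 5.03, 4.25 and 4.25 at 12 h, then 7.17, 9.96 and 11.6 at 24 h. The 3 h libraries were the highest and the 12 h libraries the lowest, without overlap between them, and the step from 3 to 12 h was -1.56 (SE 0.15, adjusted p = 1.97e-06).

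The other called members were low, at or below 4.92 FPKM in every library. CsaV3_7G006200 (peroxidase 43) stood out among them because it was higher at 12 h alone of the 3 times. It had 0.750, 0.446 and 0.634 FPKM at 0 h, 0, 0.160 and 0.075 at 3 h, 3.15, 4.92 and 4.56 at 12 h, then 0.206, 0.432 and 0.270 at 24 h. All 12 h libraries lay above all others, at 2.07 on the log2 scale over 0 h (SE 0.20) and 3.01 over 3 h, with a change of -2.54 from 12 to 24 h. The gene passed the filter only through its 12 h libraries, so that a difference at 12 h was built into its being tested. Mesophyll markers also had their highest summed level at 12 h, and their part in this change was not tested.

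CsaV3_5G012840 (lignin-forming anionic peroxidase-like), named after a tobacco enzyme, went on and off. It had 0.054, 0 and 0 FPKM at 0 h, 2.32, 2.34 and 2.17 at 3 h, 0, 0.037 and 0.112 at 12 h, then 2.40, 0.190 and 2.15 at 24 h. The 3 h libraries lay together above those of 0 and 12 h, and at 24 h replicate 2 stood more than 1.9 FPKM below the others of its time. The difference from 0 h on the log2 scale was 2.42 at 3 h (SE 0.41) and 1.75 at 24 h, for a gene that passed the filter only through its 3 h libraries. The other anionic peroxidases, CsaV3_5G012670 and CsaV3_5G012680, were not tested, and their highest values, 0.484 and 0.499 FPKM, were in 24 h replicate 3.

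Peroxidase 47 (CsaV3_4G029960), named for an Arabidopsis gene of lignifying vessels, was listed at 0 in all 0 h libraries and at 0.816, 1.36 and 0.723 FPKM at 3 h. CsaV3_6G046710 (peroxidase 49) had no more than 0.201 FPKM at 0 h and 1.15, 1.72 and 0.748 at 3 h, a difference of 1.42 on the log2 scale (SE 0.24). Peroxidases 47 and 49 both passed the filter only through their 3 h libraries. CsaV3_3G049470 (peroxidase 20), which passed it only through 24 h, had 2.67, 0.604 and 2.05 FPKM there and no more than 0.206 at 0 h, a difference of 1.73 (SE 0.35). CsaV3_6G043090 (peroxidase 10), which did not depend on the filter in this way, was higher at 3 h by 1.34 (SE 0.27, adjusted p = 0.00114). With 0.682, 0.359 and 0.292 FPKM at 0 h it was near the pseudocount, and a pseudocount of 1 gave 0.99, which ended the call. Peroxidases 10 and 49 were under 2.5 FPKM in all libraries.

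CsaV3_3G047080 (peroxidase 45-like) reached the filter in its 0 h libraries alone, so that lower values in the cold were fixed by the filter. It had 1.08, 0.860 and 1.29 FPKM at 0 h and no more than 0.330 in any cold library, so that no cold library overlapped those of 0 h. The log2 fold change was -1.02 at 3 h (SE 0.16), where it was -0.93 without 0 h replicate 3 and -0.99 without 3 h replicate 2, then -1.60 at 12 h and -1.40 at 24 h. CsaV3_6G047430 (peroxidase 64-like), whose Arabidopsis counterpart builds the lignin of the Casparian strip in roots, was lower at 24 h by -1.01 (SE 0.14, adjusted p = 3.33e-05). This call was lost without 0 h replicate 2 (-0.95), 24 h replicate 2 or 24 h replicate 3 (both -0.98) and after median-ratio rescaling (-0.89).

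Peroxidase 17, an Arabidopsis gene of lignified tissues, appeared 4 times, as CsaV3_4G004610 and as CsaV3_UNG126970, CsaV3_UNG160170 and CsaV3_UNG223560 on unplaced sequence. Their levels were similar, at 0.543 to 1.06 times that of CsaV3_4G004610 in the same library, with the lowest ratio in CsaV3_UNG160170. Reads may be shared between them and they are uncertain as separate genes. Over the 4 copies the range was 1.53 to 2.47 FPKM at 0 h, 0.843 to 1.53 at 3 h, 0.503 to 1.10 at 12 h and 0.212 to 0.633 at 24 h. All 4 were lower at 24 h, with log2 fold changes from -1.48 to -1.38, and if they are counted once the members lower at 24 h number 6 in place of 9.

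Of the 27 tested members, 4 were called against 0 h at no time: peroxidase 46 and 3 others. CsaV3_3G016670 (peroxidase 66), named for an Arabidopsis gene of vessels, had 1.28, 0.424 and 1.57 FPKM at 0 h and 0.102, 1.34 and 0.169 at 24 h. These libraries overlapped, the change was -0.73 on the log2 scale (SE 0.39, adjusted p = 0.107), and it was called lower without 0 h replicate 2 (-1.09) or 24 h replicate 2 (-1.24). CsaV3_3G042040 (peroxidase 31) remained at or below 2.38 FPKM. CsaV3_5G033660 (peroxidase 11), which reached the filter in its 0 h libraries alone, had 0.558, 0.800 and 0.765 FPKM there and no more than 0.479 in any cold library.

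Between consecutive times in the cold, 4 members were higher and 6 lower at 12 h than at 3 h (6% and 15.3% of all tested genes), and 5 were higher and 2 lower at 24 h than at 12 h (8.46% and 5.2%). Without overlap of libraries, 4 were above and 15 below at 12 h against 3 h (21.2% and 50.7%), and 8 above and 6 below at 24 h against 12 h (29.5% and 27%). The group mean was highest at 0 h for 8 tested members, at 3 h for 9, at 12 h for 2 and at 24 h for 8. These are 29.6%, 33.3%, 7.41% and 29.6% of them, beside 34.6%, 28.6%, 16.1% and 20.6% of all tested genes.

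Genes that supply or share the substrates of the peroxidases were counted in the same fit. For comparison with the counts of every list below, 9.89% of all tested genes were higher and 5.39% lower at 3 h. These shares were 9.62% and 16.6% at 12 h, and 13.2% and 18.1% at 24 h. By description, 73 genes matched enzymes of monolignol synthesis. Among them are 4-coumarate--CoA ligase-like and probable mannitol dehydrogenase genes, whose place in this pathway is not given by the description. Of the 73, 64 were tested, and 22 were higher and 1 lower at 3 h, 9 higher and 16 lower at 12 h, and 20 higher and 14 lower at 24 h. The median log2 fold change of this list was 0.41, -0.32 and -0.04, beside 0.03, -0.23 and -0.17 over all tested genes. Phenylalanine ammonia-lyase-like CsaV3_6G039700, of the enzyme that begins the pathway, rose at 3 h from 11.1 to 171 FPKM (3.91 on the log2 scale, adjusted p = 3.13e-10). Patterns for hydroxycinnamoyltransferase and cytochrome P450 98A matched no gene description. Of 6 tested laccases, which polymerise monolignols with oxygen, none was higher at any time against 0 h, and only laccase-4 (CsaV3_3G034130) was lower at 12 h (-1.20, adjusted p = 7.77e-06) and 24 h (-1.40, adjusted p = 1.75e-06). Among 10 tested dirigent proteins, which guide the coupling of monolignol radicals, 3 were higher and none lower at 3 h, 3 higher and 5 lower at 12 h, and 4 higher and 5 lower at 24 h.

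Of enzymes that make hydrogen peroxide, 1 of 4 tested NADPH oxidases was higher at 3 h and at 12 h, and 2 were higher and 2 lower at 24 h. Respiratory burst oxidase homolog C (CsaV3_3G043480) had 4.33 FPKM at 0 h, and it rose to 85.1 at 3 h (4.30 on the log2 scale, adjusted p = 1.80e-06), to 15.8 at 12 h and to 79.4 at 24 h. Amine oxidases and germin-like proteins gave 3 higher and 1 lower of 16 tested at 3 h, 6 higher and 1 lower at 12 h, and 3 higher and 2 lower at 24 h. Other enzymes that remove hydrogen peroxide changed little in number, with none of 18 called at 3 h, 1 higher and 1 lower at 12 h, and 2 and 1 at 24 h. The largest of these by level were cytosolic ascorbate peroxidase CsaV3_1G033510, which rose from 410 to 958 FPKM at 24 h (1.22, adjusted p = 2.68e-09), and catalase isozyme 1 (CsaV3_4G037250), which fell from 1930 to 669 FPKM (-1.54, adjusted p = 6.35e-08).

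Extensins, wall proteins that peroxidases can cross-link, gave 2 higher and 1 lower of 17 tested at 3 h, 2 of each at 12 h and 3 of each at 24 h. The 30 matched extensin genes nevertheless summed to more in every cold library than in any 0 h library. Their sum was 678 to 795 FPKM at 0 h and 1174 to 1283 at 3 h. It was 2415 to 2813 FPKM at 12 h and 1234 to 2080 at 24 h. Of 23 tested genes matched to the Casparian strip, nearly all CASP-like proteins of no stated place, 4 were higher and 1 lower at 3 h, none higher and 8 lower at 12 h, and 4 higher and 10 lower at 24 h. Markers of other cell types moved as well. The 20 xylem and lignified cell markers summed to 19.4 to 20.9 FPKM at 0 h and 18.1 to 19.9 at 3 h. Their sum was 10.7 to 12.3 FPKM at 12 h and 13.7 to 17.8 at 24 h. Of 13 tested, none was higher at any time, and 2 were lower at 12 h and 1 at 24 h. The 24 epidermis and cuticle markers summed to 2940 to 3138 FPKM at 0 h and 6507 to 7490 at 3 h. At 3 h, 8 of 18 tested were higher and 1 lower. Their sums were 2353 to 3075 FPKM at 12 h and 2741 to 3663 at 24 h. The 14 phloem markers summed to 490 to 818 FPKM at 0 h and 340 to 479 at 3 h. Their sums were 395 to 439 FPKM at 12 h and 388 to 540 at 24 h. The 17 root markers summed to 49.6 to 53.8 FPKM at 0 h and 58.9 to 62.2 at 3 h. Their sums were 70.8 to 73.2 FPKM at 12 h and 57.8 to 60.2 at 24 h. The part of these shifts in the changes of the peroxidases was not tested.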

How the data were processed

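Reads of 12 leaf libraries were trimmed by the authors (cutadapt 1.9 and FastQC in the submitters' processing notes) and mapped by HISAT2 against the genome Chinese Long V3. The authors deposited FPKM, and the program that computed it and the library sizes were not given in the sources used here. Deposited values of 0.0001 FPKM, which mark absent expression, were read as 0. Fold changes, p-values and q-values of the authors' own comparisons in the deposited tables were not used. No coordinates or sequences of the members were used here, since no identifier matched the reference table, and chromosomes were read from the identifiers.

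Genes reaching 0.5 FPKM in 3 or more of 12 libraries were tested on log2(FPKM + 0.5) with limma 3.58.1 in R 4.3.3 (all libraries in 1 fit without an intercept, eBayes with trend and robust), with Benjamini-Hochberg adjustment over 17497 genes. The steps were tested on simulated data. Exact permutation of 3 against 3 libraries cannot pass p = 0.05, so it was left out. Libraries in each group are separate samples in the labels. The p-values set a difference of group means against the spread between libraries within groups. That spread is pooled over the 4 groups and adjusted with information from all tested genes. Figures were drawn with Python 3.11.15 and matplotlib 3.10.9.

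Given in full were members called against 0 h with a group mean of at least 5 FPKM and the 10 members with the highest mean FPKM, and run members as a range. Other members and listed genes were named after their values were seen. Members, gene lists and rules were chosen with earlier results of these data known. Alternatives were pseudocounts of 0.1 and 1, a stricter filter or none, no fold threshold, quantile normalization, median-ratio rescaling, separate fits of 6 libraries, a block for the replicate number, each library left out, and other member rules.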

Additional observations from a re-analysis of the deposited data

How the results depend on the processing

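Library sizes are unknown, the groups hold 3 libraries, and members near 1 FPKM rest on few reads, so calls near the fold threshold depended on the settings. A pseudocount of 1 left 4 members higher at 3 h, against 7. A pseudocount of 0.1 gave 9 lower at 12 h and 4 lower at 24 h against 12 h. Without a fold threshold the members lower numbered 11 at 3 h, 10 at 12 h, 11 at 12 h against 3 h and 8 at 24 h against 12 h. Shares of all tested genes with these settings, or with libraries left out, are not given here. Such counts therefore show only how far the calls of members shift, not whether members differ from other genes. With number-bearing descriptions alone, 3 were higher at 24 h against 12 h (8.46% of all tested genes). Over all 82 genes of the orthology, 11 were higher at 3 h (9.89% of all tested genes) and 15 at 24 h (13.2%). At 24 h against 12 h, 11 of the 82 were higher (8.46%) and 4 lower (5.2%). The summed FPKM of these 82 genes was 937 at 0 h, 892 at 3 h and 1678 at 24 h. Of this, 72.1, 79.2 and 67.9 FPKM came from CsaV3_2G024700, described as cytochrome b-c1 complex subunit 8-like and not as a peroxidase. Without the most abundant member the sums were 505, 392, 575 and 709 at 0, 3, 12 and 24 h, and median-ratio rescaling gave 672 at 3 h.

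With each library left out in turn, members higher numbered 7 at 3 h, 5 to 8 at 12 h and 8 to 10 at 24 h, and members lower 2 to 3, 2 to 4 and 8 to 9. At 12 h against 3 h the counts were 4 to 5 higher and 5 to 6 lower, and at 24 h against 12 h 4 to 7 and 2 to 3. Directions of values that were not called reversed for CsaV3_6G043930 at 12 h against 3 h (-0.05, but 0.24 with median-ratio rescaling, 0.28 with quantile normalization, and -0.43 to 0.32 with libraries left out), for CsaV3_4G023590 at 3 h without 0 h replicate 3 (-0.032, range to 0.31) and for CsaV3_5G005000 at 3 h without 3 h replicate 2 (-0.86, range to 1.12). The causes were not tested.

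Deviations of libraries with the same replicate number correlated across genes at -0.164 to 0.158, and those with other numbers at -0.21 to 0.145. These ranges overlapped, and the highest value, 0.158, was between 12 h replicate 2 and 24 h replicate 2. Whether those libraries share more than their number was not tested. With the replicate number as a block, 7 members were higher and 3 lower at 3 h, 7 higher and 3 lower at 12 h, and 9 higher and 9 lower at 24 h, the same counts as without it.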

Other observations

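The KEGG orthology of plant peroxidases also held 27 genes that the description rule left out, of which 13 were tested and 10 were at 0 in all libraries. At 24 h against 0 h, 6 of the 13 were higher and 1 lower, beside 13.2% and 18.1% of all tested genes. Among those higher, CsaV3_1G040180, CsaV3_6G006890 and CsaV3_UNG056470 reached the filter only through their 24 h libraries. A rise at 24 h was thus built into their being tested, so this count is no result beside those shares. Not all are peroxidases by description, since vacuolar iron transporter homologs, a probable WRKY transcription factor and a cytochrome b-c1 complex subunit are among them. CsaV3_4G023620 and CsaV3_4G023640 lie between members of the chromosome 4 run by their identifiers. CsaV3_4G023640, described as peroxidase, had a mean of 7.02 ± 0.483 FPKM (SD, n = 3) at 0 h and then 13.7 ± 8.15, 43.6 ± 23.7 and 84.6 ± 11.5 at 3, 12 and 24 h. It was higher at 12 h (log2 fold change 2.37, limma adjusted p = 0.000968) and 24 h (3.49, adjusted p = 5.01e-05). CsaV3_4G023620, a hypothetical protein, went from 9.58 ± 4.01 FPKM at 0 h to 86.3 ± 31.2 at 24 h and was higher at all 3 times.

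Of the genes described as peroxidase P7 or P7-like, a name from turnip, 3 were near 0 before the cold and highest at 24 h. They are given with no test since the filter favours such genes. CsaV3_1G040180 went from 0.0452 FPKM at 0 h to 3.08 ± 1.27 at 24 h, and CsaV3_7G005720 from 0.0491 to 3.34 ± 1.03. CsaV3_UNG056470 was listed at 0 in every library at 0, 3 and 12 h and had 2.99, 1.04 and 2.79 FPKM at 24 h, replicate 2 being the lowest. The other genes of this name did not rise in this way. CsaV3_6G018980 and CsaV3_6G018990 were at 0 throughout, and CsaV3_6G019040 went from 0.362 FPKM at 0 h to 0.0871 at 24 h. CsaV3_6G002170 had 0.561 ± 0.273 FPKM at 0 h and 0.644 ± 0.425 at 24 h.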
